A study of Mus musculus with 5 samples.

Results

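Cytosolic ribosomal protein genes were examined in pro-B cells of Mef2c-deficient and control mice. A gene was a member if its Affymetrix probe set was assigned to exactly 1 gene symbol of the Rpl, Rps, Rplp or Rpsa series, with pseudogenes, the Rps6 kinases and Rps19bp1 left out, and the probe set with the highest mean stood for the gene. This gave 47 members among 17325 genes tested, with 20 genes of the large subunit, 21 of the small subunit and 6 paralogs (Rpl22l1, Rpl39l, Rpl3l, Rpl7l1, Rps4l and Rps27l).

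RNA came from B220+IgM-CD43+CD24+ pro-B cells sorted from bone marrow of 9-month-old mice, 2 arrays from Vav-Cre Mef2cfl/fl mice and 3 arrays from control mice. Vav-Cre is active in haematopoietic cells generally, so that the deletion is not limited to B-lymphoid cells. Controls in the study were Mef2cfl/fl, Mef2cfl/+ or Vav-Cre Mef2cfl/+ mice, so they may carry floxed alleles or Cre, and which of these a given array represents was not stated. Mef2c itself had log2 values of 12.85 and 12.60 on the Mef2c-deficient arrays, against 13.77, 14.35 and 14.07 on the control arrays. Its log2 fold change was −1.34 with a standard error of 0.29, and the place of its probe set with respect to the floxed exon was not stated. Mef2c was not called after a further quantile normalization of the arrays (−0.43), after cyclic loess (−0.32), with arrays centred on housekeeping genes (−0.48) or on the brightest genes (−0.37), or with weighted arrays (−1.25). In signal it was 1.90-fold lower, so a 2-fold threshold on that scale left it uncalled too.

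Ribosomal proteins form, together with the ribosomal RNAs, the small subunit that decodes mRNA and the large subunit that joins amino acids. Their genes are transcribed at very high rates in dividing cells such as B-cell progenitors, and the subunits are assembled in the nucleolus with the help of many assembly factors. Most of their mRNAs begin with a C followed by a run of pyrimidines, the terminal oligopyrimidine (TOP) tract, through which growth signalling by mTOR controls their translation.

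Values are log2 of the deposited intensity, and a log2 fold change is Mef2c-deficient minus control on that scale. Their range points to a natural exponential of the log2 signal, on which a fold of 2 in the deposited intensity is a 1.62-fold difference in signal. Genes are called with the cut-offs that the study used, a fold of at least 2 and an unadjusted limma p of at most 0.05. By limma, 0 of 17325 genes reached an adjusted p under 0.05, while 5593 had an unadjusted p under 0.05.

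The RefSeq promoter table (GRCm38.p6) held a window for 41 of the 47 members, and 7 stretches of it are shown because they differ in the pyrimidine tract at the transcription start. Each runs 5′ to 3′ over 60 bases, with the annotated start at base 41 and the longest pyrimidine run in capitals. Rps6 (chr4:86857348-86857407, minus strand) and Rps10 (chr17:27635225-27635284, minus strand) were called lower and carry a tract at the start. Rps3 (chr7:99483690-99483749, minus strand) and Rpl22 (chr4:152325686-152325745, plus strand, the first of its windows) were called lower, and their longest run lies upstream of the start. Rps18 (chr17:33955646-33955705, minus strand), Rplp2 (chr7:141447611-141447670, plus strand) and Rpl38 (chr11:114668540-114668599, plus strand) carry a tract at the start and were not called.
Rps6: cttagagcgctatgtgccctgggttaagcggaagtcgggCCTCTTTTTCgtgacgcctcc
Rps10: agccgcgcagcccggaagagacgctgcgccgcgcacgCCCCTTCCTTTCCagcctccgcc
Rps3: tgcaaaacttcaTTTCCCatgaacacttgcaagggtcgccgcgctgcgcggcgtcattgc
Rpl22: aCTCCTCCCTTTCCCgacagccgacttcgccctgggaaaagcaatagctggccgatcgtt
Rps18: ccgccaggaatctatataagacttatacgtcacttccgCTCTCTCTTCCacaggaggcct
Rplp2: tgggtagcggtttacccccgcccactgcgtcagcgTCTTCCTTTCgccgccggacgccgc
Rpl38: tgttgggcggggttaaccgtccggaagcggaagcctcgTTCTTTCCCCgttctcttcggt

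In Mef2c-deficient pro-B cells 9 of 47 ribosomal protein genes fell and none rose, which is 19.1% of the members, where 16.7% of all genes tested fell and 9.65% rose. At this threshold the share of members that fell was near that of the array as a whole. With a fold of 2 in signal 8 of 47 members fell, against 10.6% of all genes. With the dimmer genes left out 8 of 43 members fell, against 29.9% of all genes. The comparison therefore depends on the fold scale and on the genes it is made with. The median log2 fold change of the members was −0.43 (37 negative and 10 positive), against 0.04 over all genes (−0.44 against −0.86 with dim genes left out), but it was positive at 0.14 after cyclic loess, 0.43 with arrays centred on housekeeping genes and 0.54 with arrays centred on the brightest of 10 groups of genes by mean level, members left out. These 2 centrings moved the median of all genes to 0.90 and 1.01. Relative to it the members stood at −0.48, as in the deposited values. Both Mef2c-deficient arrays lay below all 3 controls in 19 members (40.4%), against 28.4% of all genes. They lay above all 3 controls in 3 members (6.38%; Rps29, Rps24 and Rps4x), against 25.9% of all genes. An adjusted p under 0.10 was found for 4 members, Rps3, Rpl7l1, Rpl22 and Rps6, which is 8.51%, against 12% of all genes. In sorted bulk samples, fewer cells of a type and less RNA per cell cannot be told apart.

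**Figure D1:**
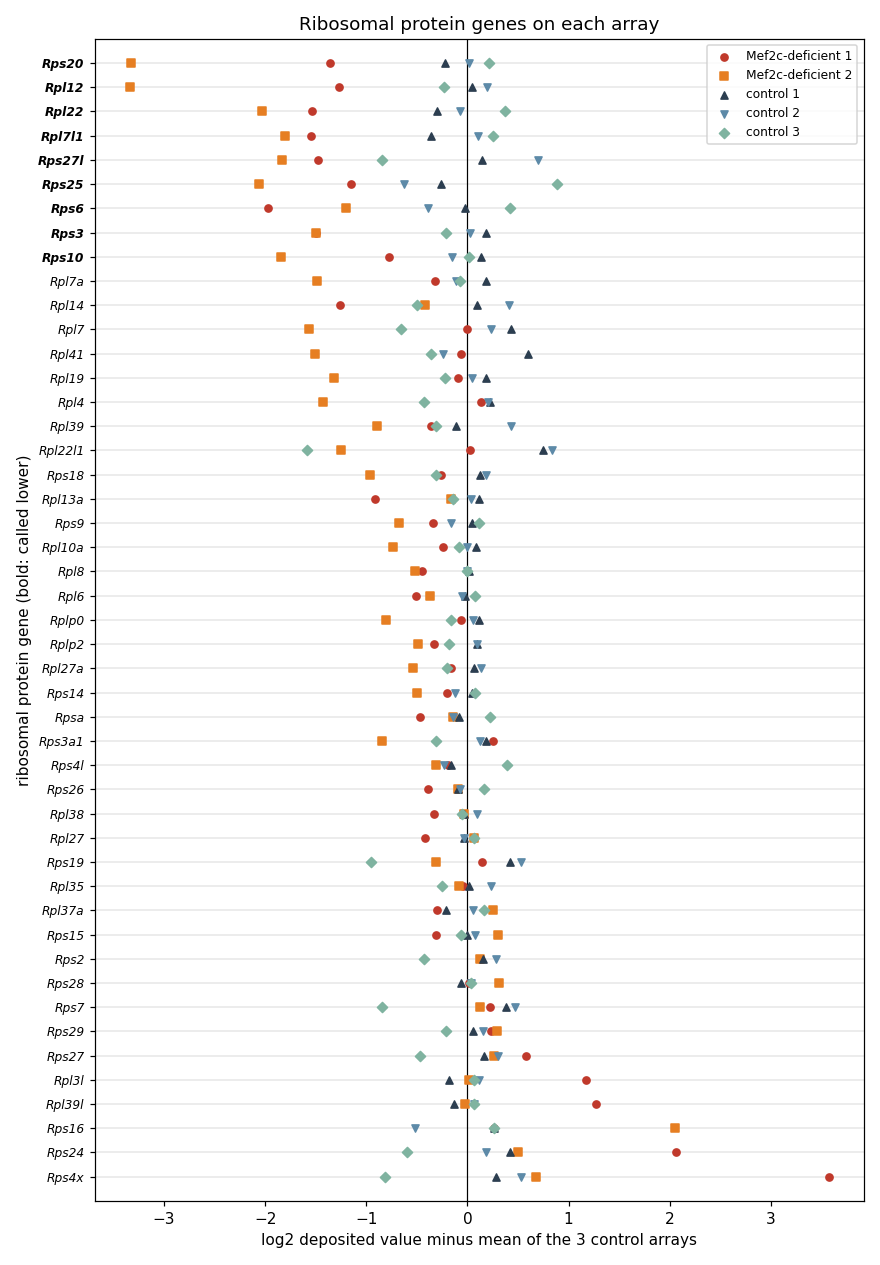
Log2 deposited value of each of the 47 ribosomal protein genes (vertical axis, bold where called lower) minus the mean of the 3 control arrays (horizontal axis), with 1 point per array. The 9 called genes stand at the top with both Mef2c-deficient arrays left of all controls, and Rps4x stands at the bottom with Mef2c-deficient replicate 1 far to the right.

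Of 21 small subunit genes, 5 fell (Rps20, Rps25, Rps6, Rps3 and Rps10), none rose and 16 did not pass. Their median log2 fold change was −0.24, with 13 negative and 8 positive values, and it was 0.44 after cyclic loess and 0.62 with housekeeping centring. The median of all genes under housekeeping centring was 0.90. Rps20, a protein of the head of the small subunit, had the lowest fold change of all members. Its log2 values were 8.31 and 6.35 on the Mef2c-deficient arrays, against 9.45, 9.69 and 9.88 on the control arrays. The groups did not overlap, although the Mef2c-deficient arrays were 1.96 apart on the log2 scale and the controls 0.44. The log2 fold change of Rps20 was −2.34 (standard error 0.62), with limma adjusted p = 0.102, a 3.08-fold lower signal. Its size depended on the Mef2c-deficient array, at −1.36 without replicate 2 and −3.33 without replicate 1.

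Rps3 lines the entry channel for mRNA and also takes part in DNA repair. Rps3 had log2 values of 11.48 and 11.48 on the Mef2c-deficient arrays, against 13.15, 13.00 and 12.76 on the control arrays. Replicates lay close together in both groups, and the groups did not overlap. The log2 fold change of Rps3 was −1.49 (standard error 0.25), with limma adjusted p = 0.0895, and its p was the smallest among the members.

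Rps6 is phosphorylated by the S6 kinases when growth signalling is active. Rps6 had log2 values of 12.07 and 12.84 on the Mef2c-deficient arrays, against 14.02, 13.66 and 14.46 on the control arrays. Here replicate 1 was the lower of the Mef2c-deficient arrays, unlike in most members. The log2 fold change of Rps6 was −1.59 (standard error 0.39), with limma adjusted p = 0.0968.

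Rps25, which viral internal ribosome entry sites need for initiation, had log2 values of 10.70 and 9.79 on the Mef2c-deficient arrays, against 11.59, 11.22 and 12.73 on the control arrays. Its controls spread over 1.52 on the log2 scale, and its log2 fold change of −1.60 (standard error 0.57) had the largest limma adjusted p of the called members, 0.139. Rps10, another protein of the small subunit's head, had log2 values of 7.52 and 6.44 on the Mef2c-deficient arrays, against 8.43, 8.14 and 8.31 on the control arrays. Its log2 fold change was −1.31 (standard error 0.39), with limma adjusted p = 0.114. Rps10 was a dim probe set, in the fifth of 10 groups of genes by mean level, and in signal it was 1.88-fold lower, short of 2-fold. Without Mef2c-deficient replicate 2 its log2 fold change was −0.77 and was not called.

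Scaling divided these small subunit genes. Rps20 was still called after the further quantile normalization (−2.36) and cyclic loess (−2.30), and so was Rps10 (−1.54 and −1.62). Both probe sets were dim for a member, in groups 6 and 5 of the 10 by mean level, counted from the dimmest. Under the same scalings Rps3 (−0.58 and −0.49), Rps6 (−0.70 and −0.57) and Rps25 (−0.85 and −0.75) had negative log2 fold changes that were no longer called.

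Among the small subunit genes that did not pass were genes known from human disease. Rps19, mutated in Diamond-Blackfan anaemia, had log2 values of 17.47 and 17.01 on the Mef2c-deficient arrays, against 17.74, 17.86 and 16.37 on the control arrays. The Mef2c-deficient values lay within the control range, and the 95% interval of the log2 difference ran from −1.48 to 1.31. Rps14, lost in the 5q deletion of myelodysplasia, had log2 values of 18.77 and 18.47 on the Mef2c-deficient arrays, against 19.02, 18.85 and 19.04 on the control arrays. Both Mef2c-deficient values were below all controls, and the difference of −0.35 had an interval from −0.99 to 0.29. Rpsa, also known as the laminin receptor, had log2 values of 8.04 and 8.37 on the Mef2c-deficient arrays, against 8.43, 8.37 and 8.73 on the control arrays, a difference of −0.31 with an interval from −0.997 to 0.38.

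Rps4x, an X-linked protein of the small subunit, had the highest fold change of all members but did not pass. Its log2 values were 13.42 and 10.53 on the Mef2c-deficient arrays, against 10.13, 10.38 and 9.04 on the control arrays. The 2.89 between the Mef2c-deficient arrays was the widest spread of any member in that group, and only replicate 1 stood far above the controls. The log2 fold change of Rps4x was 2.13 (standard error 0.96), with limma adjusted p = 0.189. It was 3.57 without Mef2c-deficient replicate 2 and 0.68 without replicate 1. The probe set of Rps4x was in group 8 of the 10 by mean level, and its name marks possible cross-hybridisation.

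Of 20 large subunit genes, 2 fell (Rpl12 and Rpl22), none rose and 18 did not pass. All 20 log2 fold changes were negative, with a median of −0.51, but 13 of the 20 were positive after cyclic loess (median 0.13), and 17 of the 20 with housekeeping centring (median 0.35, against 0.90 over all genes). Rpl12 lies at the base of the stalk that recruits elongation factors. Its log2 values were 9.31 and 7.24 on the Mef2c-deficient arrays, against 10.62, 10.76 and 10.34 on the control arrays. As for Rps20, both Mef2c-deficient arrays were below all controls and replicate 2 was far below replicate 1. The log2 fold change of Rpl12 was −2.30 (standard error 0.65), with limma adjusted p = 0.107, and it was −1.27 without Mef2c-deficient replicate 2 and −3.34 without replicate 1.

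Rpl22 is dispensable for protein synthesis in general, and in mice its loss blocks the development of αβ T cells. Rpl22 had log2 values of 9.62 and 9.12 on the Mef2c-deficient arrays, against 10.85, 11.08 and 11.52 on the control arrays. Both groups were narrow, and they did not overlap. The log2 fold change of Rpl22 was −1.78 (standard error 0.33), with limma adjusted p = 0.0897, a 2.36-fold lower signal. Both genes were still called after quantile normalization and cyclic loess, Rpl12 at −2.06 and −1.88 and Rpl22 at −1.26 and −1.11, while Rpl22 was not called with housekeeping centring (−0.92). Rpl12 was in group 7 and Rpl22 in group 8 of the 10 by mean level, below most members.

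The acidic stalk itself did not pass. Rplp0, the base of the stalk, had log2 values of 18.80 and 18.06 on the Mef2c-deficient arrays, against 18.98, 18.92 and 18.70 on the control arrays. Rplp2, which binds to it, had log2 values of 20.43 and 20.27 on the Mef2c-deficient arrays, against 20.85, 20.85 and 20.57 on the control arrays. The Mef2c-deficient arrays overlapped the controls in Rplp0 and lay below them in Rplp2. The log2 differences were −0.43 (interval −1.26 to 0.39) for Rplp0 and −0.41 (interval −1.05 to 0.23) for Rplp2.

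Rpl38, required in the mouse embryo for the translation of Hox mRNAs, had log2 values of 19.58 and 19.87 on the Mef2c-deficient arrays, against 19.87, 19.995 and 19.85 on the control arrays. The difference of −0.18 had an interval from −0.81 to 0.45. Rpl13a, which in human cells also serves in a complex that represses inflammatory mRNAs, had log2 values of 15.86 and 16.61 on the Mef2c-deficient arrays, against 16.89, 16.81 and 16.63 on the control arrays. Its replicate 1 was clearly below the controls and its replicate 2 next to the lowest of them, and the difference of −0.54 had an interval from −1.36 to 0.29. Of the genes fixed by name, Rpl5, Rpl11, Rpl10 and Rplp1 had no probe set of their own and were not measured singly.

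The other large subunit genes ranged in log2 fold change from −0.91 for Rpl7a to −0.02 for Rpl37a. Several of them were low on a single Mef2c-deficient array. Rpl4 had log2 values of 19.41 and 17.85 on the Mef2c-deficient arrays, against 19.51, 19.48 and 18.85 on the control arrays. Replicate 1 of Rpl4 lay among the controls and replicate 2 lay well below all of them. Rpl8 was the reverse, with narrow groups of 17.60 and 17.53 on the Mef2c-deficient arrays and 18.06, 18.04 and 18.04 on the control arrays. Its log2 fold change of −0.48 was short of the fold threshold, and its unadjusted limma p of 0.0871 did not pass either.

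Of 6 paralogs, 2 fell (Rpl7l1 and Rps27l), none rose and 4 did not pass. Rpl7l1, a relative of Rpl7 whose human counterpart is found in precursors of the large subunit, had log2 values of 10.69 and 10.44 on the Mef2c-deficient arrays, against 11.89, 12.35 and 12.49 on the control arrays. Its log2 fold change was −1.68 (standard error 0.30), with limma adjusted p = 0.0895. Rps27l, a p53-induced relative of Rps27, had log2 values of 13.29 and 12.94 on the Mef2c-deficient arrays, against 14.91, 15.47 and 13.93 on the control arrays. Its log2 fold change was −1.66 (standard error 0.51), with limma adjusted p = 0.118. Neither gene's groups overlapped, and the controls of Rps27l were spread more widely than its Mef2c-deficient arrays. Neither was called after quantile normalization (−0.86 for Rpl7l1 and −0.75 for Rps27l) or cyclic loess (−0.77 and −0.67).

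The change of each paralog was then set against that of its parent gene on the same arrays. The log2 difference between Rps27l and Rps27 changed by −2.08 between Mef2c-deficient and control cells, and Rps27 itself had a positive log2 fold change of 0.42 that did not pass. That between Rps4l and Rps4x changed by −2.38, although Rps4l itself had a log2 fold change of only −0.26. On Mef2c-deficient replicate 2 the difference of this pair was −1.59, close to the lowest control at −1.355. In both pairs the groups were separated, with an exact two-sided permutation p = 0.1, which is the smallest that 2 against 3 arrays can give. Separation was common among single genes too. Both Mef2c-deficient arrays lay below all controls in 28.4% of all genes and above them in 25.9%. The share over pairs of genes was not computed. The pairs Rpl22l1 with Rpl22 (1.17, exact permutation p = 0.6) and Rpl7l1 with Rpl7 (−0.89, exact permutation p = 0.4) were not separated. The fifth pair, Rpl39l with Rpl39 (1.25, exact permutation p = 0.1), was separated too. Separation was not read as a result in any pair. The probe set of Rpl39l was in the second dimmest of the 10 groups by level. Its log2 fold change of 0.62 was close to the median of all genes there, 0.64.

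Rpl22l1, which Rpl22 represses in other cells, had the widest control range of any member, 2.43 on the log2 scale. Its log2 values were 17.05 and 15.77 on the Mef2c-deficient arrays, against 17.77, 17.86 and 15.44 on the control arrays. Control replicate 3 was the lowest of all 5 arrays, and the difference of −0.61 had an interval from −2.93 to 1.70. The same control array was also far below the others in Rps19 and in Rps7, where it had 16.37 against 17.60 and 17.69.

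How the 9 called genes lay in the range of signal was examined next. With all genes split into 10 equal groups by mean level, 28 of the 47 members were in the brightest group, 3 in the next and 16 below. In the brightest group 2 members fell (7.14%, Rps6 and Rps27l), against 566 of 1705 other genes there (33.2%). The median log2 fold change there was −0.42 for the members and −0.93 for the other genes, but after a further quantile normalization these medians were −0.22 and −0.13, and after cyclic loess 0.20 and 0.05. The members of the brightest group were thus closer to 0 than the other genes of that group in the deposited values, and not after those scalings. Level was not matched within the group. It began at a mean log2 value of 12.96, while members such as Rplp2 and Rpl38 had control means of 20.76 and 19.90. Of the 19 dimmer members 7 fell (36.8%), against 14.9% of the other genes outside the brightest group, but the share of all genes that fell ran with level, at 0.173% in the dimmest of the 10 groups and 40.9% in the ninth. Of the 19 dimmer members, 3 were in the ninth group and 4 in the eighth, where 34.1% of all genes fell. The part of brightness itself in these values was not tested. Whether the dimmer probe sets report the mature mRNA of their genes was not tested either.

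**Figure D2:**
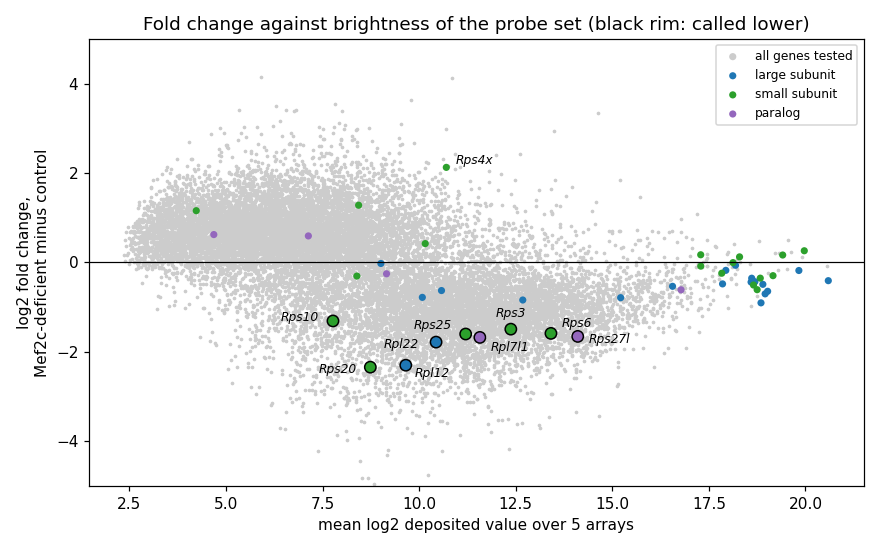
Log2 fold change, Mef2c-deficient minus control (vertical axis), against mean log2 deposited value over 5 arrays (horizontal axis), for all 17325 genes in grey (4 lie outside the axis) and the 47 members in colour. The brightest members on the right lie close to 0, and the 9 called genes, rimmed in black, lie to their left.

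The 5 arrays differed among themselves in the level of the members. The median deviation of the 47 members from the mean of the 5 arrays was −0.09 and −0.33 on Mef2c-deficient replicates 1 and 2, against 0.26, 0.23 and −0.02 on control replicates 1, 2 and 3. Mef2c-deficient replicate 2 was below replicate 1 in 32 of 47 members, and control replicate 3 was the lowest control in 28 of 47. The other genes of the brightest group did not share the low value of control replicate 3, with medians of −0.49 and −0.60 on the Mef2c-deficient arrays against 0.36, 0.30 and 0.44 on the control arrays. The assembly factors and housekeeping genes described below ran in the same order over the 5 arrays as the members. Assembly factors had medians of −0.71 and −0.89 on the Mef2c-deficient arrays against 0.75, 0.69 and 0.49 on the control arrays. Housekeeping genes had −0.28 and −0.78 against 0.52, 0.44 and 0.31.

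The hybridisation controls and cell type markers also differed between the arrays. Their part in the result was not tested. The 15 probe sets of the hybridisation controls, which are added in fixed amount, had median log2 deviations of 1.97 and 0.12 on the Mef2c-deficient arrays, against −0.43, −0.05 and −1.58 on the control arrays. Both Mef2c-deficient arrays thus lay above all 3 control arrays, and this difference cannot be told apart from that of genotype. Defining markers of pro-B cells were present, with 9 of 12 measured and none called (median log2 fold change −0.86), and their summed deposited intensity ranged from 563433 to 746275 on the Mef2c-deficient arrays and from 520730 to 1188580 on the control arrays. The summed deposited intensity of 9 of 10 T and NK cell markers ranged from 17207 to 68792 on the Mef2c-deficient arrays and from 16697 to 35477 on the control arrays, with the highest value on Mef2c-deficient replicate 2. For all 9 neutrophil markers listed the sum ranged from 2462100 to 5611710 on the Mef2c-deficient arrays and from 2231950 to 4844460 on the control arrays, where control replicate 3 was the lowest. The sum of 5 of 7 plasmacytoid dendritic markers ranged from 12556 to 90769 on the Mef2c-deficient arrays and from 36918 to 53696 on the control arrays. That of 5 of 6 plasma cell markers was lower on both Mef2c-deficient arrays, 175624 and 189343, than on the control arrays, 192077 to 323604. Of these 5 markers, 3 had negative log2 fold changes and 2 positive ones (Xbp1 at 0.53 and Prdm1 at 0.24). The sum of 3 of 6 erythroid markers was 560 and 2474 on the Mef2c-deficient arrays and 599 to 638 on the control arrays. The high value was on replicate 2, where Alas2 had a log2 value of 11.10, against 8.57 on replicate 1. The sum of 7 macrophage markers overlapped, at 2100 to 4945 on the Mef2c-deficient arrays and 1073 to 5041 on the control arrays.

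**Figure D3:**
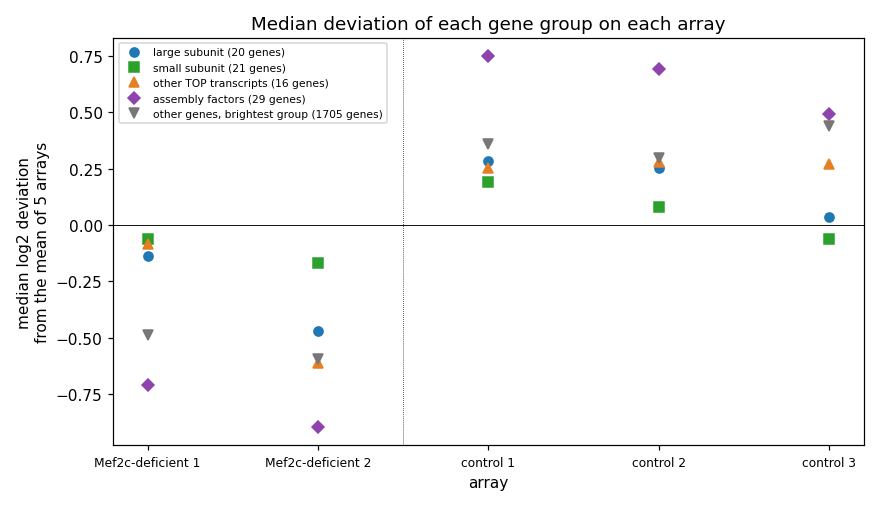
Median log2 deviation from the mean of 5 arrays (vertical axis) on each array (horizontal axis), for large and small subunit genes, other TOP transcripts, assembly factors and the other genes of the brightest group. In the deposited values the ribosomal protein genes stand nearer to 0 than the assembly factors on all 5 arrays, and the subunit medians turn positive in fold change after cyclic loess and housekeeping centring. Housekeeping centring also moved the median of all genes to 0.90.

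Other genes of the translation machinery were described in the same way, to place the members. Of 16 measured TOP transcripts that encode no ribosomal protein of the list, 5 fell (31.2%) and 1 rose, with a median log2 fold change of −0.65. All but Eif3e were in the brightest group, where 33.2% of the genes that are not members fell, with a median of −0.93. The median of the TOP transcripts was 0.11 after cyclic loess, 0.20 with housekeeping centring (against 0.90 over all genes) and −0.21 without Mef2c-deficient replicate 2. The number that fell was 2 after the further quantile normalization, 1 after cyclic loess and 2 with housekeeping centring. Those that fell in the deposited values were Npm1, a nucleolar chaperone, at −1.92, the histone chaperone Nap1l1 at −1.999, the initiation factor Eif4b at −1.56, the elongation factor subunit Eef1d at −1.11 and the snoRNA host gene Gas5 at −2.09. The initiation factor subunit Eif3e rose by 1.38 from a dim probe set. Elongation factors Eef1a1 and Eef2 did not pass, at −0.14 and −0.29, and neither did Fau, whose product is cleaved to a ribosomal protein, at 0.01.

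Of 29 measured factors of rRNA synthesis and subunit assembly, 20 fell (69%) and 1 rose, with a median log2 fold change of −1.52. Of the 10 measured housekeeping genes 6 fell too (60%, median −1.09), and of all genes in the ninth and the brightest of the 10 groups by level 40.9% and 32.8% fell. The median of the assembly factors was negative under each scaling tried, at −0.66 after the further quantile normalization, −0.56 after cyclic loess and −0.66 with housekeeping centring. Under these 3 scalings 8, 6 and 6 of the assembly factors fell, where 8.57%, 8.35% and 3.55% of all genes fell. Fbl, the methyltransferase of rRNA, had log2 values of 14.42 and 12.51 on the Mef2c-deficient arrays, against 16.59, 15.97 and 16.16 on the control arrays. Rrs1, which acts in assembly of the large subunit, had log2 values of 10.05 and 9.73 on the Mef2c-deficient arrays, against 12.96, 12.57 and 12.37 on the control arrays. In both, the groups were far apart, with log2 fold changes of −2.77 (standard error 0.62) and −2.74 (standard error 0.30). Rpf2, also of the large subunit, was the member of this list that rose, by 1.22 from a dim probe set.

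**Figure D4:**
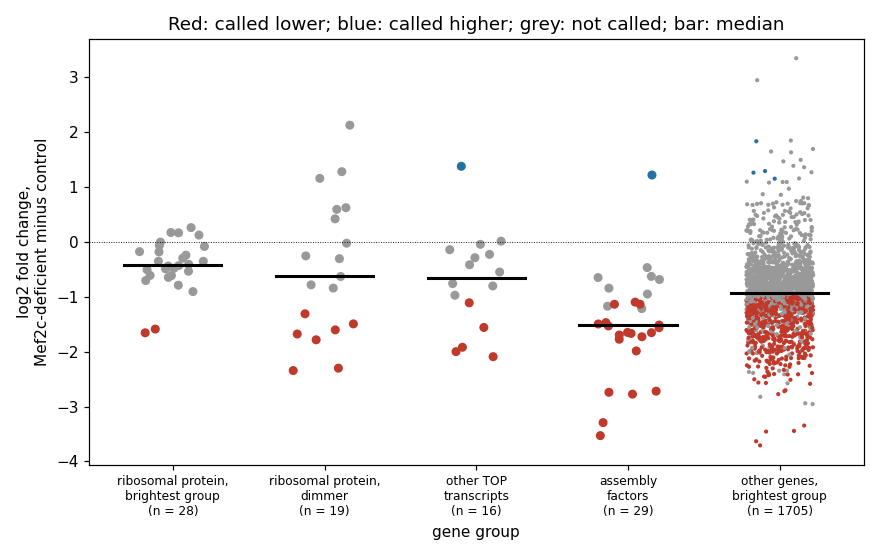
Log2 fold change, Mef2c-deficient minus control (vertical axis), of single genes by group (horizontal axis), with the median as a bar. In the deposited values the median was −0.42 for ribosomal protein genes of the brightest group, −0.65 for other TOP transcripts, −1.52 for assembly factors and −0.93 for other genes of the brightest group, and after cyclic loess these medians were 0.20, 0.11, −0.56 and 0.05.

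The promoter windows, from 250 bases before to 50 after the annotated start, were searched for features that the choice of members did not use. A run of at least 5 pyrimidines led by C and beginning within 5 bases of the start, as shown above for Rps6 and Rps18, was present in 20 of 41 members (48.8%), against 21.2% of all 27025 genes with a window. It was present in 4 of 8 called genes with a window and in 16 of 33 that were not called. A run of at least 8 pyrimidines between 30 bases before and 50 after the start, a definition chosen after the stretches had been seen, was present in 31 of 41 members (75.6%), against 32.3% of all genes, with 5 of the 8 called genes and 26 of the 33 others.

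Motifs were searched on both strands of the same windows. The ETS core ACTTCCG was present in 11 of 41 members (26.8%, against 7.2% of all genes), among them 4 of the 8 called genes, Rps25, Rps27l, Rps3 and Rps6, and 7 of the 33 others. The YY1 core AAGATGGC was present in 4 members (9.76%, against 3.19%), of which Rpl22 and Rpl7l1 were called lower. The SP1 core GGGCGG was present in 24 members (58.5%, against 38.2%) and the E-box CACGTG in 4 (9.76%, against 8.09%). The MEF2 motif was present in 1 member, Rpl3l (2.44%, against 3.7% of all genes). A match describes letters in the window and not a bound site.

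For 7 members a second probe set was available. The sets differed in sign for Rps24 (1.28 and −1.71), Rpl27a (−0.35 and 0.49) and Rpl35 (−0.06 and 0.77), where the set listed second was not the brighter. For Rps18 the brighter set gave a log2 fold change of −0.61 and was not called, and the other gave −1.53 and was called lower (standard error 0.46), with log2 values of 9.74 and 8.89 on the Mef2c-deficient arrays, against 10.75, 10.34 and 11.43 on the control arrays. The values of Rps24 and Rps18 therefore depended on the probe set. Both sets were negative and not called for Rpl27, Rps14 and Rps15.

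Probe sets assigned to several symbols, which were left out of the members, gave a further view of ribosomal protein genes. Of 51 such sets that list a ribosomal protein gene, 8 fell and 1 rose (15.7% and 1.96%), where 13.5% and 10.1% of all 23835 probe sets did. Their median log2 fold change was −0.30, with 36 negative and 15 positive, against 0.19 over all probe sets. Their median deviations were −0.13 and −0.36 on the Mef2c-deficient arrays, against 0.24, 0.27 and 0.01 on the control arrays, and control replicate 3 again stood below the other controls. Among the members themselves, the 12 whose probe set name marks possible cross-hybridisation had a median of −0.10 with 1 called, the 2 whose name marks probes shared between transcripts of several genes (Rpl22, called, and Rps9) one of −1.14, and the 20 with a plain name one of −0.53 with 6 called. Ribosomal protein genes have many processed pseudogenes, and signal of such copies cannot be told apart from that of the genes.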

How the data were processed

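RNA of sorted pro-B cells was hybridised to 5 Affymetrix arrays (2 Mef2c-deficient, 3 control). The authors computed probe set intensities by robust multiarray averaging, with background adjustment and quantile normalization. The deposited intensity values are not in log form, but their range points to a natural exponential of the log2 signal, that is a power of the signal; the sources do not state the scale. The number of arrays limits the precision. The 23835 probe sets were named through GEO's platform annotation (17623 with 1 symbol, 516 with several and 5696 with none), no sample column was left unused (0), and genes had the probe set with the highest mean log2 value. Log2 values were fitted with limma 3.58.1 in R 4.3.3 (lmFit, eBayes) over all 17325 genes without covariates, with Benjamini-Hochberg adjustment, and the script was tested on simulated data. Samples are described as independent, but not as separate mice, so p-values measure only the spread between them. Named genes were all called members, those with the highest and lowest fold change, those with the widest range in each group and a fixed list of ribosomal protein genes and Mef2c. Members and lists were chosen with earlier results of these data known. Promoters came from RefSeq. Alternatives covered scaling, fold scale, probe set choice, a filter on dim genes, variance prior, array weights, the methods' t-test, a replicate block and leaving out each array.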

Additional observations from a re-analysis of the deposited data

How the results depend on the processing

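Of the 47 ribosomal protein genes, 9 fell and 0 rose in the deposited values, with a median log2 fold change of −0.43, and scaling changed this most. After a further quantile normalization 4 fell and 2 rose (median −0.20), and after cyclic loess 4 fell and 2 rose (median 0.14). Of all genes 8.57% fell and 7.93% rose after the former, and 8.35% fell and 6.75% rose after the latter. The 4 members that fell under both were Rpl12, Rpl22, Rps10 and Rps20, and the 2 that rose were Rps27 and Rps4x. With housekeeping centring 2 members fell and 8 rose (median 0.43), where 3.55% of all genes fell and 43.9% rose. Centring on the brightest of 10 groups by mean level, without the members, was chosen after seeing the data. With it 0 members fell and 9 rose (median 0.54), where 2.48% of all genes fell and 47.3% rose. These centrings moved the median of all genes to 0.90 and 1.01, against 0.04 in the deposited values, and relative to it the members stood at −0.48 in each case. That distance was −0.20 after quantile normalization, 0.15 after cyclic loess and 0.42 with dim genes left out, where 8 of 43 members and 29.9% of all genes fell. Centring on array medians gave a median of −0.66. The methods' t-test called 4 (Rpl22, Rpl7l1, Rps3 and Rps6), where 9.99% of all genes fell, and 0 after Benjamini-Hochberg adjustment. The filter on dim genes, the intensity trend, array weights, a fold of 2 in signal and the median over probe sets gave 8 to 10 that fell and 0 that rose. Of all genes 10.6% to 29.9% fell and 3.07% to 10% rose in these.

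Leaving out 1 array gave medians of −0.50 to −0.26, the last without Mef2c-deficient replicate 2. Leaving out 1 control array gave 5 to 7 members that fell and 0 that rose, where 11.2% to 12.5% of all genes fell and 5.58% to 7.48% rose. The lowest count, 5, came without control replicate 1, and 6 came without control replicate 3, where 11.2% and 11.6% of all genes fell. The fits without a Mef2c-deficient array assume that the lone array varies like the controls. The log2 fold change of Rps4x was 0.68 without Mef2c-deficient replicate 1 and 3.57 without replicate 2. Rps3, Rpl22 and Rpl7l1 were called lower in each of the 5 fits. Of the others, Rps6 was lost without Mef2c-deficient replicate 1 (−1.20), Rps20 without control replicate 3 (−2.24), Rpl12 without control replicate 1 (−2.28) or 2 (−2.21), although Rps20 and Rpl12 were called without either Mef2c-deficient array, at −3.34 to −1.27, and Rps10, Rps27l and Rps25 without 3 or more of the arrays. Groups share numbers 1 and 2. About their mean 2 Mef2c-deficient arrays mirror each other, so same-number correlations (0.12 and −0.01 over genes) cannot decide pairing. With a replicate block 6 members fell, 0 rose and the median was −0.49, where 11.2% of all genes fell and 4.13% rose. Control replicate 3 has no partner there, so this equals its omission in fold change.

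Fold changes of single genes changed sign as follows, none of them called. Rps19 was at 0.11 after quantile normalization, 0.66 after cyclic loess, 0.78 with housekeeping centring, 0.89 with brightest-group centring, 0.13 without control replicate 1, 0.18 without control replicate 2 and 0.15 without Mef2c-deficient replicate 2, and ranged between −0.56 and 0.18 over the fits that leave out 1 array. Rpl22l1 was at 0.18 after cyclic loess, 0.25 and 0.36 with the housekeeping and brightest-group centrings, and 0.027 without Mef2c-deficient replicate 2, the highest of the fits that leave out 1 array (lowest −1.41). After cyclic loess Rps14 was at 0.20, Rpl13a at 0.28, Rpl38 at 0.23 and Rplp0 at 0.14. With housekeeping centring Rps14 was at 0.51, Rpsa at 0.55, Rpl13a at 0.32, Rpl38 at 0.68, Rplp0 at 0.43 and Rplp2 at 0.45, and with brightest-group centring these were at 0.62, 0.67, 0.44, 0.79, 0.54 and 0.56. The cause of these changes was not tested. The call requires a fold of 2, which most members did not reach whatever their p.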
